A study of Mus musculus with 6 samples.

Results

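Serine synthesis and one-carbon enzymes were followed through 8 genes, Phgdh, Psat1, Psph, Shmt1, Shmt2, Mthfd1, Mthfd2 and Mthfd1l, in hippocampal microglia sorted by their content of lipid droplets. The 8 were chosen by gene symbol, with their normalized counts in the comparison of lipid droplet-high (LD-high) with lipid droplet-low (LD-low) microglia already known. Their differences between those groups are therefore given as a description, with no test of their own. All 8 are among the 14148 genes of the deposited table, and all 8 passed the filter on low values, a normalized count of at least 10 in at least 3 libraries, which left 11624 genes.

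Both groups came from male C57BL/6 mice aged 18 months, with no genetic change or treatment named, so that age, sex and strain are the same throughout. Microglia, the resident macrophages of the brain, were gated as live CD11b+CD45lo cells and divided by BODIPY, a dye of neutral lipid, into a BODIPY-low (LD-low) and a BODIPY-high (LD-high) fraction. Each group had 3 libraries, each from about 10000 sorted cells taken from hippocampi pooled over 3 mice. Nothing in the labels says that pools held separate animals, and p-values then measure only the spread between these samples.

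Cells make serine from 3-phosphoglycerate, an intermediate of glycolysis. Phosphoglycerate dehydrogenase (Phgdh) oxidises it, phosphoserine aminotransferase (Psat1) adds an amino group from glutamate, and phosphoserine phosphatase (Psph) releases serine. Serine hydroxymethyltransferase, cytosolic in the product of Shmt1 and mitochondrial in that of Shmt2, then moves a carbon of serine onto tetrahydrofolate and leaves glycine. The folate-bound carbon is interconverted in the cytosol by the trifunctional enzyme of Mthfd1 and in mitochondria by those of Mthfd2 and Mthfd1l, and it feeds purine, thymidylate and methionine synthesis. In brain tissue, serine synthesis is best known from astrocytes, and in macrophages it supplies glycine for glutathione and carbon for methylation.

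The promoters of the serine synthesis genes are shown because these 3 enzymes act in sequence and all 3 had higher normalized counts in every LD-high library than in any LD-low library. The same separation held for Shmt1 and Mthfd1, and for 12.7% of all genes tested, so it does not set these 3 apart. Each is the RefSeq window from 250 bases before to 50 bases after a transcript start, 5′ to 3′ on the coding strand. RefSeq's table is of build GRCm38.p6, and each window was placed in mm9 by its single exact match on its chromosome. All 8 genes had a window, and Psat1 had 2, of which the upstream one is shown. Its start lies 22278 bases inside the annotated span of Psat1, at the start of an annotated transcript. Capitals mark CCAAT on either strand, read as ATTGG on the opposite one.
Psat1, chr19:15999500-15999799, minus strand: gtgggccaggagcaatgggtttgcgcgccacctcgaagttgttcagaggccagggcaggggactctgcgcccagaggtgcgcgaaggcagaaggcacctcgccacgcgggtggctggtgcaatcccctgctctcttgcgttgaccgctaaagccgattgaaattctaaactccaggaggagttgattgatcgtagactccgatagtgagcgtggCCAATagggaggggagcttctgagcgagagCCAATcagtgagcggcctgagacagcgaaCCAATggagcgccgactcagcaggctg
Phgdh, chr3:98143843-98144142, minus strand: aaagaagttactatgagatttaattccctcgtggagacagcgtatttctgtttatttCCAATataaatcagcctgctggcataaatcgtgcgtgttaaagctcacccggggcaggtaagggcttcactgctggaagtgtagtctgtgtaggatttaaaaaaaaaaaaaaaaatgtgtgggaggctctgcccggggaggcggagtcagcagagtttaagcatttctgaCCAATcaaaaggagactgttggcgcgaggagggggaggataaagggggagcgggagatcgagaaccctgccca
Psph, chr5:130293080-130293379, minus strand: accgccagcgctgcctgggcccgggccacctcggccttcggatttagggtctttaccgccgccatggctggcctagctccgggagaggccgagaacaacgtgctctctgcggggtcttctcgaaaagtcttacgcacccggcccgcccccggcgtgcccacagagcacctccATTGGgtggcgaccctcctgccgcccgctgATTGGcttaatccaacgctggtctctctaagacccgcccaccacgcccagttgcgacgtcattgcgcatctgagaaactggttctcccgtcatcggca

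The letters CCAAT, the core of the CCAAT box, occurred 3 times in the Psat1 window, 2 times in that of Phgdh and 2 times in that of Psph. Of the windows not shown, that of Mthfd2 held CCAAT 3 times, those of Shmt1 and Mthfd1 1 time each, and those of Shmt2, Mthfd1l and the second start of Psat1 0 times. At least 1 copy was present in 37.4% of all 32851 RefSeq windows of this length. GGGCGG, the GC box, occurred 3 times in the Psph window, 0 times in the other windows shown, 4 times in that of Shmt1, 2 times in the second one of Psat1, 1 time each in those of Mthfd1 and Mthfd1l and 0 times in those of Shmt2 and Mthfd2. At least 1 copy was present in 35.7% of all windows. The letters TGATGNAA, a core of elements bound by Atf4, the transcription factor of the amino acid response, were in none of the 9 windows of the 8 genes and in 3.97% of all windows. TGACNNNGC, a core of Nrf2 elements, occurred 1 time each in the Phgdh and Psph windows, in none of the other 7 and in 12.4% of all windows. Both strands were searched, a match describes letters and not a bound site, and the absence of a match covers only these 300 bases.

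The serine synthesis enzymes lay higher in LD-high microglia, and Psat1 had the largest log2 difference of the 8 genes, except that Shmt1 exceeded it without LD-high replicate 1 (0.61 for Shmt1, 0.46 for Psat1) and, by little, with quantile normalization (0.63 and 0.62). Psat1 (mm9 chromosome 19, 15979168 to 16021827, 9 exons in its longest transcript) had 801, 669 and 605 normalized counts in LD-low replicates 1, 2 and 3 and 1288, 1025 and 868 in LD-high replicates 1, 2 and 3. The groups did not overlap, and LD-high replicate 1 stood highest. The means were 691 ± 100 and 1060 ± 212 (SD, n = 3 each), a fitted log2 difference of 0.61 ± 0.14 (SE) on log2(normalized count + 1). Of the 11624 genes tested, 1.59% had a larger log2 difference. In bulk libraries, a change in the number of cells that hold a transcript and a change in its amount per cell cannot be told apart.

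Phgdh, whose enzyme commits 3-phosphoglycerate to serine (chromosome 3, 98117093 to 98143913, 12 exons), had the highest level per kilobase of the 8. It had 4184, 4379 and 4152 normalized counts in LD-low libraries and 4806, 4884 and 4705 in LD-high ones. These groups were tight and separate, with means of 4238 ± 123 and 4798 ± 90 (SD, n = 3 each) and a log2 difference of 0.18 ± 0.06. Psph, the last step (chromosome 5, 130271434 to 130293129, 8 exons), had 296, 253 and 280 normalized counts in LD-low libraries and 349, 329 and 306 in LD-high ones. Its groups were separated by only 9.43 normalized counts, with a log2 difference of 0.25 ± 0.13. The Psph values rest on 183 to 469 reads a library, and at 183 reads counting alone gives a spread of 7.39%.

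**Figure D1:**
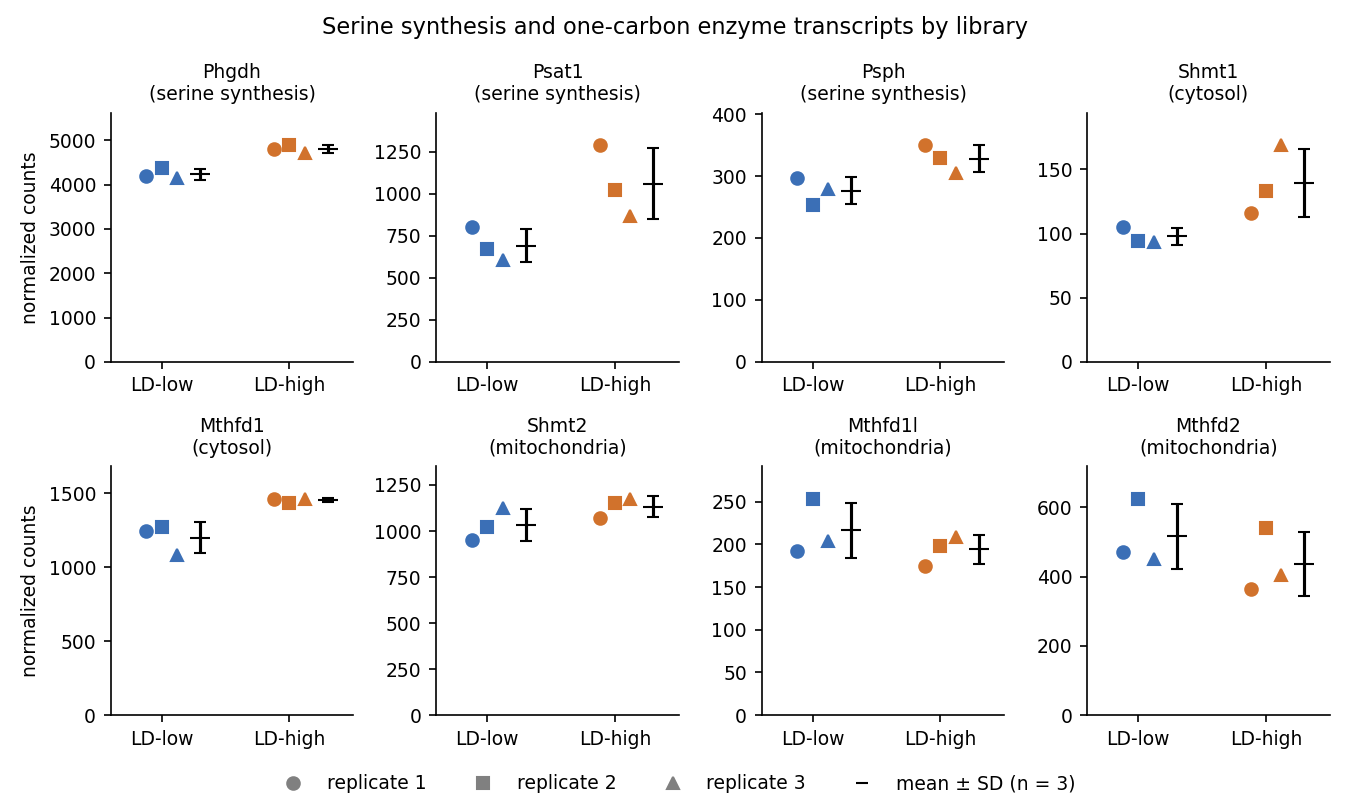
Normalized counts of the 8 genes in each of the 6 libraries, from 0, with the mean ± SD (n = 3) of each group; symbols give the replicate number. The groups are separate for Phgdh, Psat1, Psph, Shmt1 and Mthfd1, and overlap for Shmt2, Mthfd1l and Mthfd2.

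Both cytosolic one-carbon enzymes also had higher values in LD-high libraries. Shmt1 (chromosome 11, 60601606 to 60625220, 12 exons) had 105, 94.2 and 93.8 normalized counts in LD-low libraries and 116, 133 and 169 in LD-high ones. LD-high replicate 3 was the highest for Shmt1 and the lowest of its group for Psat1. The log2 difference was 0.49 ± 0.21, with means of 97.8 ± 6.5 and 139 ± 27 (SD, n = 3 each). Shmt1 was the least covered of the 8, with 87 to 156 reads a library. The exact 95% Poisson interval of LD-high replicate 1, 98.7 to 136, covers the value of LD-low replicate 1, so counting error alone spans the gap between those 2 libraries.

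Mthfd1, the cytosolic enzyme of 3 activities (chromosome 12, 77356219 to 77420807, 28 exons), had 1248, 1272 and 1079 normalized counts in LD-low libraries and 1461, 1436 and 1463 in LD-high ones. The LD-high values were nearly equal and all above the LD-low ones. The means were 1200 ± 105 and 1453 ± 15 (SD, n = 3 each), a log2 difference of 0.28 ± 0.09.

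The mitochondrial enzymes did not separate the groups. Shmt2 (chromosome 10, 126954195 to 126959491, 12 exons) had 950, 1021 and 1127 normalized counts in LD-low libraries and 1070, 1153 and 1175 in LD-high ones. LD-low replicate 3 lay above LD-high replicate 1, and the log2 difference was 0.14 ± 0.09. Mthfd2, the mitochondrial dehydrogenase and cyclohydrolase (chromosome 6, 83255685 to 83267600, 8 exons), had 472, 625 and 451 normalized counts in LD-low libraries and 363, 540 and 406 in LD-high ones. Replicate 2 was the highest of each group, the groups overlapped, and the log2 difference was -0.25 ± 0.16. Mthfd1l, which releases formate for export from mitochondria (chromosome 10, 6179460 to 6373423, 28 exons), had 192, 253 and 203 normalized counts in LD-low libraries and 175, 198 and 209 in LD-high ones. Its groups overlapped, with a log2 difference of -0.15 ± 0.16, within its own error.

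**Figure D2:**
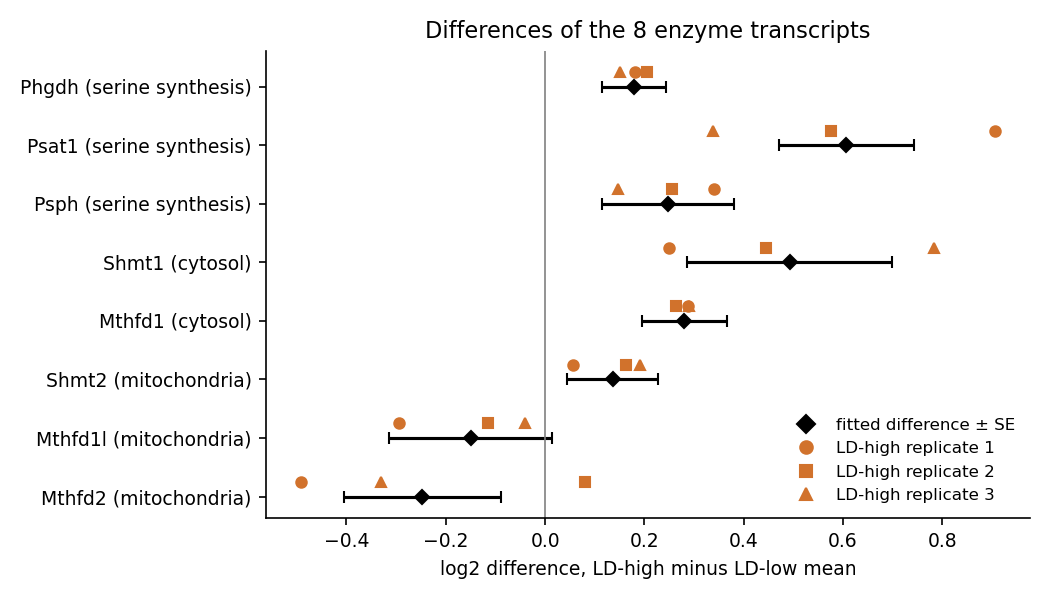
Fitted log2 difference between LD-high and LD-low libraries with its SE (black), and each LD-high library against the mean of the LD-low libraries (orange symbols by replicate number), for the 8 genes. The 3 serine synthesis genes, the 2 cytosolic genes and mitochondrial Shmt2 lie above 0 in all 3 LD-high libraries. The fitted values of Mthfd1l and Mthfd2 lie below 0.

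Of the 8 genes, 6 had a log2 difference above 0 and 2 below, with a median of 0.21, beside a median of -0.01 over all 11624 genes tested. For 5 of the 8, every LD-high library exceeded every LD-low library, as did 12.7% of all genes tested. Psat1 was the 1 of 8 past the threshold over all genes (limma, Benjamini-Hochberg adjusted p under 0.05), a threshold that 3.36% of all genes passed and 1.53% passed upward. Since the 8 were chosen with this comparison known, nothing is read from these shares. The 390 genes past the threshold, 178 higher and 212 lower, became 118 higher and 233 lower with equal totals per library, 446 and 184 with a correction for transcript length and 341 and 172 with one for GC content. Psat1 also passed with edgeR and DESeq2 on the recovered reads. Those fits use the same libraries, known when the 8 were chosen, and are no separate support. Psat1 did not pass without LD-low replicate 2, LD-low replicate 3, LD-high replicate 1 or LD-high replicate 2, where its log2 difference was 0.59, 0.52, 0.46 and 0.62.

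Compared per length, the 8 genes spanned a wide range of levels. Phgdh led in all 6 libraries, with 2239 ± 65 normalized counts per kilobase in LD-low libraries and 2535 ± 47 in LD-high ones (SD, n = 3 each), and its mean lay above that of 95.5% of the 12949 genes with an annotated length. Shmt2 came next at 453 ± 39 and 497 ± 24 normalized counts per kilobase, followed by Mthfd1 at 361 ± 32 and 437 ± 5. Psat1 exceeded Shmt2 in LD-high replicate 1. Shmt2 exceeded Mthfd1 in every library, while Mthfd1 and Psat1, at 264 ± 38 and 405 ± 81 normalized counts per kilobase, overlapped in their ranges. Mthfd2 had 247 ± 45 and 209 ± 44 normalized counts per kilobase and Psph 180 ± 14 and 213 ± 14. These 2 changed places between libraries, Psph lying above Mthfd2 in LD-high replicates 1 and 3. Mthfd1l, at 58.7 ± 8.8 and 52.6 ± 4.7, and Shmt1, at 34.2 ± 2.3 and 48.8 ± 9.4 normalized counts per kilobase, were the lowest in every library.

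**Figure D3:**
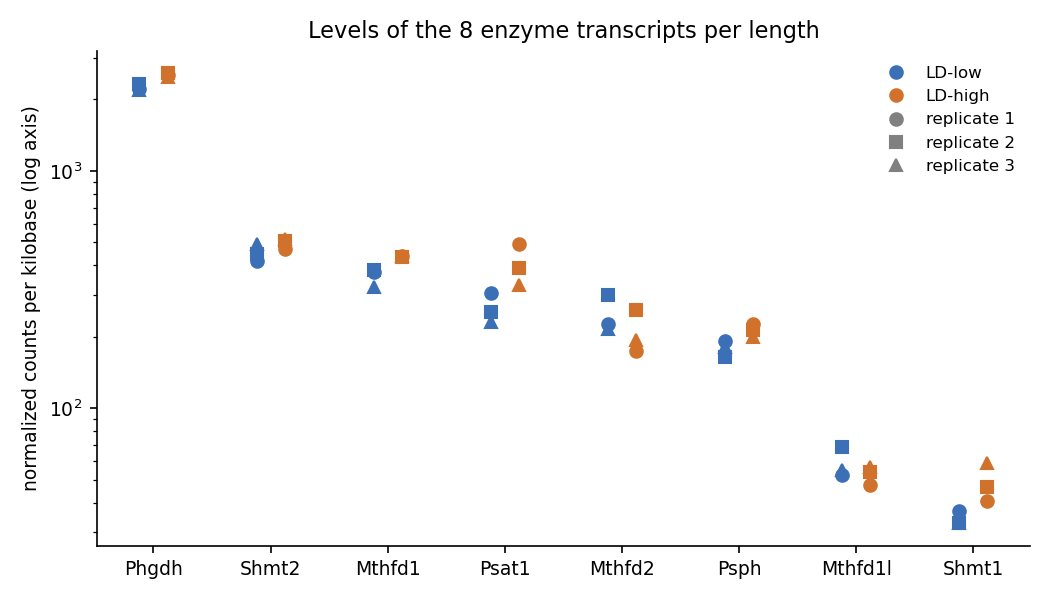
Normalized counts per kilobase of the longest annotated transcript, on a log axis, for the 8 genes ordered by their mean, with LD-low libraries in blue and LD-high libraries in orange. Phgdh stands above the other genes in every library, and Mthfd1l and Shmt1 below them.

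Ratios within a library do not depend on its scaling. The Psat1 level per kilobase was 0.118 ± 0.018 of that of Phgdh in LD-low libraries and 0.160 ± 0.031 in LD-high ones (SD, n = 3 each), and the groups overlapped. The ratio of Psph to Phgdh was 0.0804 ± 0.0082 and 0.0842 ± 0.0049. Mitochondrial Shmt2 exceeded cytosolic Shmt1 by 13.3 ± 1.9 times in LD-low libraries and 10.4 ± 1.5 times in LD-high ones, again with overlap. The ratio of cytosolic Mthfd1 to mitochondrial Mthfd1l was 7.20, 5.57 and 5.89 in LD-low libraries and 9.26, 8.03 and 7.77 in LD-high ones, without overlap. The ratio of Mthfd1 to Mthfd2 ran from 1.28 to 1.66 in LD-low libraries and from 1.67 to 2.53 in LD-high ones, so that its groups were nearly in contact. Summed per kilobase, the 3 serine synthesis transcripts came to 2683 ± 68 in LD-low libraries and 3153 ± 124 in LD-high ones and the 2 cytosolic ones to 395 ± 33 and 486 ± 11. The 3 mitochondrial ones came to 759 ± 61 and 759 ± 64 normalized counts per kilobase. Most of the serine synthesis sum was Phgdh (2239 and 2535), and most of the cytosolic sum was Mthfd1 (361 and 437). Within the mitochondrial sum, the mean of Shmt2 was higher in LD-high libraries and those of Mthfd2 and Mthfd1l were lower.

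Likeness of pattern was measured for Psat1 as the root mean square difference between log2 values over the 6 libraries, each gene centred on its own mean, among 10198 other genes that averaged 50 or more normalized counts. The nearest genes were the tubulin gene Tuba1a (0.11 log2 units), the folliculin-interacting protein gene Fnip2 (0.13) and the potassium channel gene Kcnj9 (0.14). Tuba1a had 7852, 6185 and 5792 normalized counts in LD-low libraries and 10091, 9042 and 8230 in LD-high ones, with the highest value of each group in replicate 1, as for Psat1. Of the other 7 enzymes, Psph was nearest to Psat1 (0.23 log2 units, position 268 among the 10198) and Mthfd2 farthest (0.54, position 9122).

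Of 120 genes in 8 lists of the surrounding pathways, none of them among the 8 enzymes, 93 were tested, 3 rose and 0 fell in LD-high microglia (limma, adjusted over all genes). At an unadjusted p under 0.05, 16 were higher and 4 lower. The share of all genes at that level was not computed, so nothing is read from such counts here or in the lists below. With edgeR 4 rose and 0 fell, beside 167 and 210 over all genes. With DESeq2 7 rose and 1 fell, beside 382 and 333 over all genes. The rises in edgeR and DESeq2 include Slc7a10, described below. The 93 had a median log2 difference of 0.03, and 53 lay above 0. Their 3 calls of 93 stand beside the 3.36% called over all genes.

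In the methionine cycle and transsulfuration list, Ahcyl2, a relative of the enzyme that hydrolyses S-adenosylhomocysteine, was the 1 of 9 tested members past the threshold. It rose from 1225, 1089 and 1256 normalized counts to 1697, 1551 and 1486, a log2 difference of 0.41 ± 0.09 (limma adjusted p 0.0250). The median over the list was 0.21, and 7 of its 9 tested genes lay above 0. At an unadjusted p under 0.05 it held 5 genes higher and 0 lower, edgeR called 1 higher and DESeq2 called 3 higher. Over all genes edgeR called 377 and DESeq2 715, and the counts of this list are not read as a result about it. In the purine and thymidylate list, 1 of 14 members passed: Prps2, which makes the ribose phosphate donor of purine synthesis, rose from 1899, 1902 and 1784 to 2314, 2550 and 2279 normalized counts (log2 difference 0.35 ± 0.08, limma adjusted p 0.0250). At an unadjusted p under 0.05 the purine and thymidylate list held 3 genes higher and 1 lower, edgeR called 1 higher, and DESeq2 called 2 higher and 1 lower. Among 9 tested genes that carry serine into phospholipids and sphingolipids, Sptssa, a small subunit of serine palmitoyltransferase, rose from 1097, 1100 and 993 to 1295, 1473 and 1322 normalized counts (log2 difference 0.36 ± 0.09, limma adjusted p 0.0392). The other 8 of that list did not pass, and its median was 0.02. It held 2 genes higher and 0 lower at an unadjusted p under 0.05, and edgeR and DESeq2 each called 1 higher. For these 3 genes every LD-high library exceeded every LD-low library, as for 16 of the 93 pathway genes and 12.7% of all genes tested. The reverse held for 4 of the 93 and for 1356 of all 11624 genes tested. Leaving out 1 library, Ahcyl2 passed only without LD-low replicate 1 (limma adjusted p 0.0330), and otherwise had 0.0564 to 0.110. Prps2 passed only without LD-low replicate 1 or LD-high replicate 1 (limma adjusted p 0.0331 and 0.0376), and otherwise had 0.0593 to 0.109. Sptssa passed in 0 of the 6 fits, with a limma adjusted p of 0.0502 to 0.160, and its call was also lost with equal totals (log2 difference 0.31) and quantile normalization (0.35). In limma without the variance trend none of these 3 genes passed.

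In the other 5 lists no tested gene passed in limma in either direction. The serine and glycine list had 0 of 5 past the threshold and a median of 0.08, and its smallest p belonged to Gatm, which uses glycine to make the precursor of creatine (log2 difference 0.13 ± 0.07, limma adjusted p 0.299). The folate list had 0 of 14 and a median of -0.02. Its smallest p belonged to the folate receptor gene Folr2, with 77.2, 40.1 and 43.7 normalized counts in LD-low libraries and 33.5, 22.4 and 16.7 in LD-high ones (limma adjusted p 0.129). Folr2 is also a marker of border-associated macrophages. The 5 glycolytic genes around 3-phosphoglycerate had a median of 0.12, and the smallest p was that of Pgk1, which makes 3-phosphoglycerate (log2 difference 0.22 ± 0.09, limma adjusted p 0.207). At an unadjusted p under 0.05 the serine and glycine list held 0 genes, the folate list 1 higher and 1 lower and the glycolytic list 1 higher, and neither edgeR nor DESeq2 called a gene in these 3.

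Among 11 tested transporters of serine and other neutral amino acids, 0 passed in limma, while edgeR and DESeq2 each called the same 1 gene, Slc7a10. Slc7a10, a small neutral amino acid exchanger, had 2.11, 0 and 0.929 normalized counts in LD-low libraries and 13.4, 11.2 and 16.7 in LD-high ones, from 42 reads in all. It passed the filter on low values only through the LD-high libraries, and its limma adjusted p was 0.0777. At an unadjusted p under 0.05 this list held 1 gene higher and 2 lower.

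The Atf4 and amino acid response list, from which the 8 enzymes were left out, had 0 of 26 tested members past the threshold in limma, edgeR or DESeq2. At an unadjusted p under 0.05 it held 3 higher and 0 lower. Its median was -0.04, with 11 members above 0 and 15 below. The smallest p belonged to the tryptophanyl-tRNA synthetase gene Wars (log2 difference 0.20 ± 0.08, limma adjusted p 0.178). Atf4 and Asns, the asparagine synthetase gene, were named after their values were seen. Atf4 had 2085, 2029 and 1891 normalized counts in LD-low libraries and 1955, 1861 and 1691 in LD-high ones, with overlap. Asns had 18.2, 46.6 and 25.1 normalized counts in LD-low libraries and 14.9, 28.0 and 5.01 in LD-high ones, also with overlap. The Asns values rest on only 3 to 43 reads a library. Log2 differences over the 26 tested genes ran from -1.04, that of Asns, to 0.63, that of Slc7a11. Slc7a11, also named after its values were seen, overlapped between the groups and rests on 23 to 82 reads a library.

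**Figure D4:**
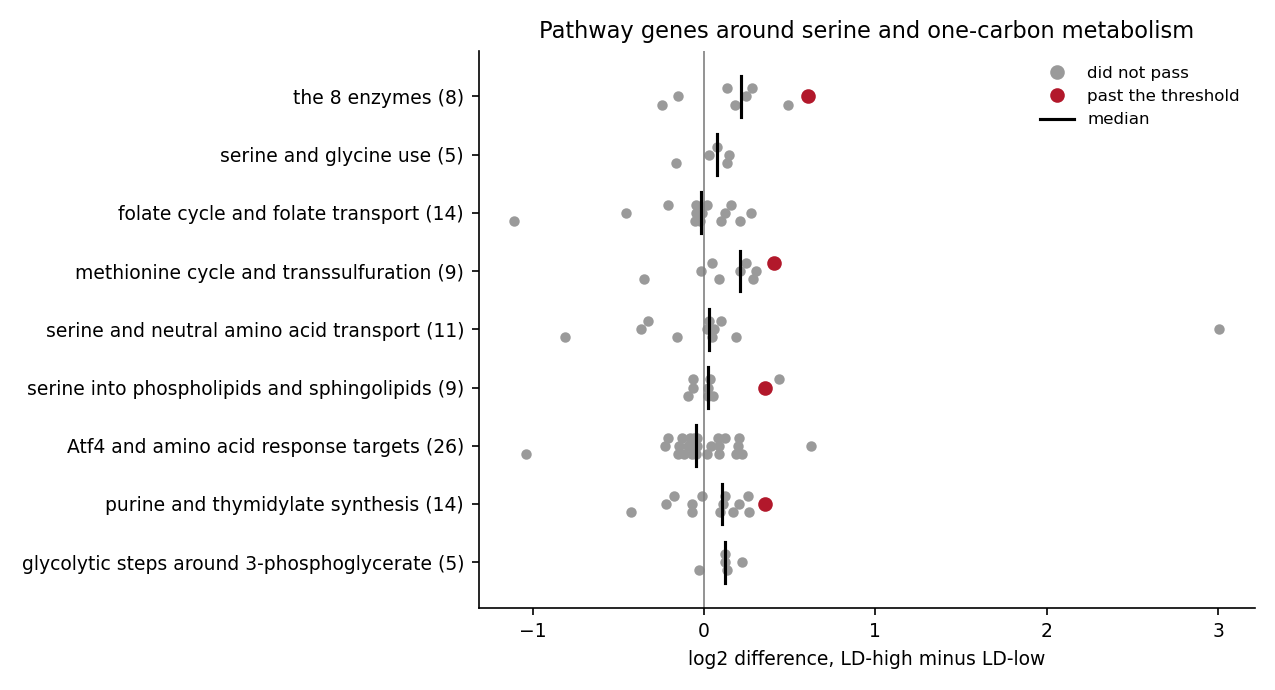
Log2 difference between LD-high and LD-low libraries of each tested gene in the 8 pathway lists and of the 8 enzymes, with list medians as black bars, the number of genes in parentheses and genes past the limma threshold in red. The red points are Psat1, Ahcyl2, Sptssa and Prps2, and the point near 3 is Slc7a10.

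Summed markers of astrocytes, oligodendrocytes and neutrophils separated the groups, while those of choroid plexus, endothelium, neurons and border-associated macrophages overlapped. The part of other cells in the values above was not tested. Libraries held 15895576 to 38489448 reads in genes, the least in LD-high replicate 3. Of the astrocyte markers, all 10 were in the table and their sum was 6481 to 7809 normalized counts in LD-low libraries and 7983 to 8881 in LD-high ones. Slc1a3 made up nearly all of it, with a mean of 7823. The other 9 summed to 61.3 to 87.0 and 67.2 to 90.9, and Aqp4 was at 0 in all LD-high libraries. Oligodendrocyte markers (7 of 8 in the table, Cnp the highest at a mean of 3196) summed to 4648 to 4896 and 5453 to 6013. Choroid plexus markers (8 of 8, Enpp2 the highest at 1642) summed to 366 to 1794 and 1719 to 5592. Proliferation genes (8 of 8, Pcna the highest at 757), listed because dividing cells use folate carbon for DNA, summed to 1396 to 1477 and 1503 to 1574. Without Pcna the other 7 came to 733 to 810 and 658 to 758.

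Neutrophil markers were lower in LD-high libraries, as were the means of Mthfd2 and Mthfd1l. Of the 8 markers, 6 were in the table, Ngp the highest at a mean of 485, and all 6 were at 0 in every LD-high library. Their sums were 1219, 1583 and 4523 in LD-low replicates 1, 2 and 3. In the same libraries Mthfd2 had 472, 625 and 451 normalized counts and Mthfd1l had 192, 253 and 203. A part of neutrophils in the values of these 2 genes was not tested. Border-associated macrophage markers (8 of 8, Mrc1 the highest at 140) summed to 254 to 557 in LD-low libraries and 167 to 416 in LD-high ones. Endothelial markers (5 of 7, Pecam1 the highest at 1346) summed to 1387 to 1811 and 1668 to 2114, and neuron markers (4 of 8, Rbfox3 the highest at 13.2) to 9.1 to 27.1 and 21.7 to 36.5. The microglia markers (8 of 8, Csf1r the highest) overlapped between the groups.

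The spans of some of the 8 genes, introns included, overlap those of others in the annotation. Exons were not compared. Counting that ignores strand cannot separate a gene from one whose exons overlap its own in antisense. Psat1 spans 556 bases of a pseudogene on the opposite strand, Shmt1 overlaps 184 bases of Smcr8, and Mthfd1l holds 444 bases of a pseudogene on its own strand. Shmt1 and Mthfd1l also span small RNA genes, and Shmt2 overlaps another gene by 14 bases. The part of these overlaps in the counts was not tested.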

How the data were processed

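RNA was measured in 6 libraries, 3 LD-low and 3 LD-high, grouped by the labelled sample type. The tools named in the submitters' processing notes are FastQC 0.11.4, STAR 2.5.1b and DESeq2, with mm9 as the build; the annotation and strand setting were not given in the sources used here. Each deposited signal value is a read count per gene that was divided by 1 size factor per library: 100% of the values were whole multiples of a step per library, within 0.01 reads, so whole reads were recovered. The filter kept a gene where 3 or more libraries reached a value of 10. Log2(normalized count + 1) was fitted with limma 3.58.1 (R 4.3.3), with its variance trend, 2-sided, and Benjamini-Hochberg adjusted over 11624 genes, with a threshold of 0.05. Other pseudocounts, filters and scalings, a replicate block and leaving out each library were tried. edgeR 4.0.16 and DESeq2 1.42.0 on the recovered reads were alternatives. The limma fit was tested on simulated data.

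The members and lists were chosen with earlier results of these data known. Genes named are the 8 members; in each of the 8 pathway lists every gene past the threshold or else the 1 with the smallest p; the 3 genes nearest in pattern to the member with the largest difference; and the highest gene of each of the 9 marker lists. Outside this rule, Atf4, Asns, Slc7a11 and Aqp4 were named after their values were seen, and Smcr8 for its overlap with Shmt1. Coordinates and lengths come from GENCODE vM1 (mm9), which matched 12949 of 14148 symbols. Of the rows, 22 carry a date in place of a symbol and are not named. Poisson intervals cover counting error only, since amplified reads carry no molecular identifiers.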

Additional observations from a re-analysis of the deposited data

How the results depend on the processing

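The 8 enzymes kept the sign of their log2 difference in all 19 alternatives each, 152 values in all, between -0.41 for Mthfd2 and 0.74 for Psat1. Psat1 passed the threshold in 14 of its 19 alternatives, not in limma without the trend nor in 4 of the 6 fits that left out a library, and ranged from 0.46 to 0.74. All of these are fits of the libraries known when the 8 were chosen, so a pass is a description. Mthfd1 passed in 3, the replicate block and the corrections for transcript length and GC content, both added after seeing the data, and Phgdh in 1, the GC content correction. The Phgdh difference moved by more than its small within-group spread with equal totals (0.14), quantile normalization (0.13), the length correction (0.22) and the GC correction (0.24). The count of genes called, 390, was 715 with DESeq2, 15 without the trend, 252 with quantile normalization, 630 with the length correction and 52 to 421 when 1 library was left out. The 3 pathway genes called became 8 with DESeq2, 5 with the GC correction, 6 with the length correction, 2 with equal totals or quantile normalization, 0 without the trend and 0 to 3 when 1 library was left out. The cause of these shifts was not tested.

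With the replicate number as a block, 1090 genes and 10 pathway genes were called. Deviations from group means correlated by 0.16, 0.13 and 0.06 between libraries of the same number, each library correlated best with its own number, and nothing in the labels says that a number marks a shared pool. Depth limits Shmt1 and Mthfd1l most, whose least covered libraries held 87 and 125 reads.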
